A study of Homo sapiens with 82 samples.

Results

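The late response of colorectal cancer cells to rosiglitazone was read from 8 RNA-seq libraries of HT29, an established human colorectal adenocarcinoma line: 4 of cells treated with 10 μM rosiglitazone for 48 h and 4 of cells given DMSO, the solvent, for the same time. The members were taken from the sample labels, and they make up 8 of the 82 samples of the series and 8 of its 32 RNA-seq libraries. The same count table also holds libraries of cells treated for 48 h with the LXR agonists GW3965 and T0901317, and a second table holds the same treatments at 24 h, with 4 libraries per group throughout. Per the study's methods, cells of all groups were kept, before any drug was added, in a McCoy's 5A medium that lacked phenol red and held serum stripped with charcoal and dextran. The methods also say that each treatment was done in quadruplicate at each time. All libraries come from this 1 cell line, and the labels do not say that the replicates are separate cultures. The p-values therefore measure the spread between these libraries.

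Rosiglitazone is a thiazolidinedione that binds and activates PPARG, a nuclear receptor for fatty acid derivatives. PPARG pairs with RXRA on direct repeats of the hexamer AGGTCA, and in fat cells it drives the uptake, storage and release of fatty acids. Its relatives PPARA and PPARD recognise similar sites and are best known for genes of fatty acid breakdown and ketone body formation. In the colon PPARG is made in the epithelium, where its agonists are known to raise lipid droplet genes and have been reported to slow growth. Per the study, earlier work on colorectal cancer proposed that PPARG can either suppress or promote tumors.

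The 48 h libraries held between 32312041 and 38577979 counts with DMSO and between 33090520 and 42120223 with rosiglitazone. Genes with at least 1 count numbered 27953 to 28651 and 27366 to 28087, respectively. The colon epithelial markers summed to 19027 to 20040 CPM (counts scaled to a common library size with TMM factors) with DMSO and 19813 to 22978 with rosiglitazone. Of the markers of other cell types, the fibroblast genes COL1A2, DCN and PDGFRA, the leukocyte genes CD3E and PTPRC and the endothelial genes EMCN and KDR had no count in any of the 8 libraries. The whole lists of these types summed to 5.90 to 7.76 CPM with DMSO and 7.98 to 8.80 CPM with rosiglitazone for fibroblasts, 474 to 497 and 467 to 507 CPM for leukocytes, and 45.6 to 59.2 and 65.8 to 96.0 CPM for endothelial cells. Of their tested members, 0 of 3, 1 of 5 and 1 of 4 rose, and their part in the results was not tested. On the first principal component of the 48 h table (48.8% of the variance) the DMSO libraries lay between -18.8 and -11.8, whereas the rosiglitazone libraries were spread from -53.1 for replicate 1 to -93 for replicate 3.

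After 48 h of rosiglitazone, more genes of fatty acid storage and oxidation rose than fell, and more genes of the secretory cell lineage fell than rose. Of 22470 genes tested, 447 (1.99%) were at least 2-fold higher and 870 (3.87%) at least 2-fold lower at an adjusted p under 0.01 in edgeR's quasi-likelihood test. At least 4-fold changes numbered 82 higher and 212 lower. Genes called at least 2-fold in either direction were 33.9% higher, and 96.1% of the 1317 had libraries that did not overlap between the groups, against 32.9% of all tested genes. Scaling by library size alone, without TMM factors, gave 301 higher and 1265 lower genes and moved the median log2 fold change of all tested genes from -0.012 to -0.191. Changes below are therefore relative to the median gene.

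**Figure D1:**
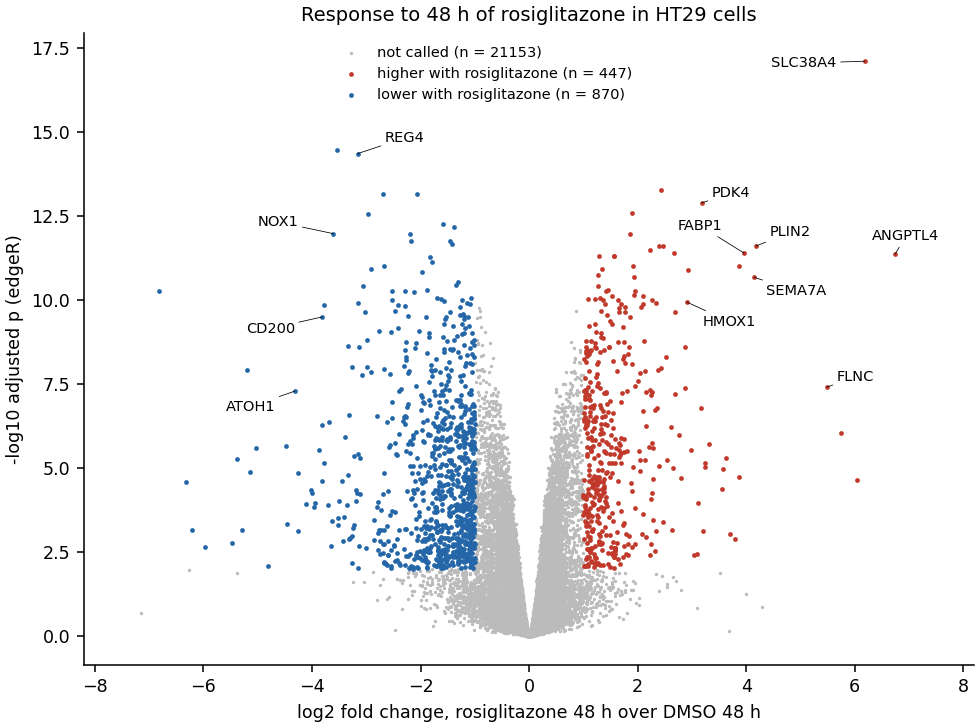
Each point is 1 of the 22470 tested genes; the x axis is the log2 fold change of rosiglitazone over DMSO at 48 h and the y axis is -log10 of the adjusted p from edgeR. The 447 genes called higher are red and the 870 called lower are blue, and SLC38A4 (6.18) and ANGPTL4 (6.75) lie farthest to the right among the labelled genes.

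The rosiglitazone libraries differed in the size of the response. The median log2 ratio to the DMSO mean over the genes called higher was 1.12 in replicate 1, 1.27 in replicate 2, 1.5 in replicate 3 and 1.3 in replicate 4, and over the genes called lower it was -1.18, -1.31, -1.57 and -1.46. Replicate 3 was the most changed and replicate 1 the least in each direction. Without replicate 1 the test called 499 higher and 1010 lower genes, and without replicate 3 it called 398 and 738.

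The largest increase was that of a gene from the list of fatty acid uptake and binding. ANGPTL4, which encodes a secreted inhibitor of lipoprotein lipase and is a textbook PPAR target, gave 0.326, 0.150, 0.296 and 0.228 CPM in the DMSO libraries and 20.4, 27.3, 35.4 and 26.4 CPM with rosiglitazone. Its log2 fold change of 6.75 ± 0.31 (SE, n = 4 per group) was the largest increase among genes averaging at least 1 on the log2 CPM scale (adjusted p = 4.17e-12). Every treated library was far above every DMSO library, and the highest was replicate 3.

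FABP1, the fatty acid binding protein of liver and gut epithelium, gave 2.02, 3.20, 1.23 and 2.51 CPM with DMSO and 35.2, 35.0, 30.7 and 37.2 CPM with rosiglitazone. The treated libraries were close together and did not overlap the DMSO libraries (log2 fold change 3.96 ± 0.18, adjusted p = 3.94e-12). The list of fatty acid uptake, binding and activation had 19 tested members, of which 8 rose and 2 fell at an adjusted p under 0.01, where 12.3% of all tested genes rose and 13.1% fell. Its median log2 fold change was 0.07. The shares of 12.3% and 13.1% are the background for every list count below. Library-size scaling gave 7 and 3, and the count of 2 was 1 without rosiglitazone replicate 4 or DMSO replicate 1, 2 or 4. Among the activating enzymes that join fatty acids to coenzyme A, ACSL5 rose from 193 ± 6.58 to 466 ± 51.7 CPM (SD) and ACSL1 by a log2 fold change of 0.50 ± 0.06. VLDLR, a lipoprotein receptor, rose by 1.21 ± 0.14. The fatty acid transporter CD36 was near the detection limit, at 0 to 0.505 CPM with DMSO and 0.0325 to 0.417 CPM with rosiglitazone (log2 fold change -0.12 ± 0.75, adjusted p = 0.917). FABP4, the fatty acid binding protein of fat cells, was too rare to test: it had no count in the DMSO libraries and 1, 2, 7 and 3 counts with rosiglitazone.

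Promoter sequence is shown for 3 of these genes because the receptor's known binding site can be looked for in it. The windows searched ran from 250 bases before to 50 bases after the start of the gene in RefSeq (GRCh38.p14), and the motif was a direct repeat of AGGTCA with 1 spacer base of any kind, on both strands with up to 2 mismatches. Such a match was present in 816 of 27305 promoters (3.0%). Of the 7 promoters read, those of FABP1, ANGPTL4, PDK4, PLIN2, SLC38A4, PPARD and LIPE, only that of FABP1 held one. It lies 68 to 56 bases before the start and reads CGGCCAGAGGTCA in the direction of the motif. The stretches printed are the 150 bases before the start, 5′ to 3′ on the gene's strand, with the match in capitals: FABP1 at chr2:88128063-88128212 (minus strand), ANGPTL4 at chr19:8364005-8364154 (plus strand) and PDK4 at chr7:95596517-95596666 (minus strand).
FABP1: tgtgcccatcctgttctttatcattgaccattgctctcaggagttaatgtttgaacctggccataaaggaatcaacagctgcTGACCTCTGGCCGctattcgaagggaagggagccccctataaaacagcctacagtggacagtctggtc
ANGPTL4: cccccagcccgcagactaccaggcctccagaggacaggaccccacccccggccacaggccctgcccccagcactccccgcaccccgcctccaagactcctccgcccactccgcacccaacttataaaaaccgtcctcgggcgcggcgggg
PDK4: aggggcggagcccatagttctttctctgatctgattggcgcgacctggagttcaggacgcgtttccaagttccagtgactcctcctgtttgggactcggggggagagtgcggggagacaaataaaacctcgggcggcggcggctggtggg
Genes without a match in this window simply lack these letters there, and sites farther away were not looked for.

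Genes of the lipid droplet, the organelle that stores triglycerides, were also among the steep increases. PLIN2, which coats the droplet, gave 7.42, 9.52, 8.28 and 9.27 CPM with DMSO and 99.4, 137, 225 and 165 CPM with rosiglitazone. The groups were far apart, replicate 3 was again the highest and replicate 1 the lowest of the treated libraries, and the log2 fold change was 4.18 ± 0.18 (adjusted p = 2.43e-12). LIPE, the hormone-sensitive lipase, gave 45.1, 40.1, 35.3 and 44.3 CPM against 198.8, 208, 196 and 164 CPM, without overlap (2.22 ± 0.10, adjusted p = 3.14e-12). The coat protein gene PLIN4 rose by 2.10 ± 0.12 and AGPAT2, an enzyme of triglyceride synthesis, by 1.42 ± 0.08. In all, 11 of the 22 tested members of the list rose and 3 fell, with a median of 0.29. With library-size scaling 9 rose and 3 fell, and the count of 3 was 1 without rosiglitazone replicate 2 or DMSO replicate 3. Of the 3 that fell, LPIN3, a phosphatidate phosphatase, fell by 1.01 ± 0.14 on the log2 scale.

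Several of these genes are also markers of fat cells. The 5 adipocyte markers that could be tested, LIPE, PLIN1, CIDEC, AQP7 and CFD, were all higher with rosiglitazone, with log2 fold changes from 1.39 ± 0.21 for CFD to 2.68 ± 0.16 for AQP7. Their list summed to 39.97 to 49.2 CPM with DMSO and 182 to 228 CPM with rosiglitazone, most of it from LIPE. The defining fat cell genes ADIPOQ, LPL, CIDEA and RETN had no count in any of the 8 libraries.

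**Figure D2:**
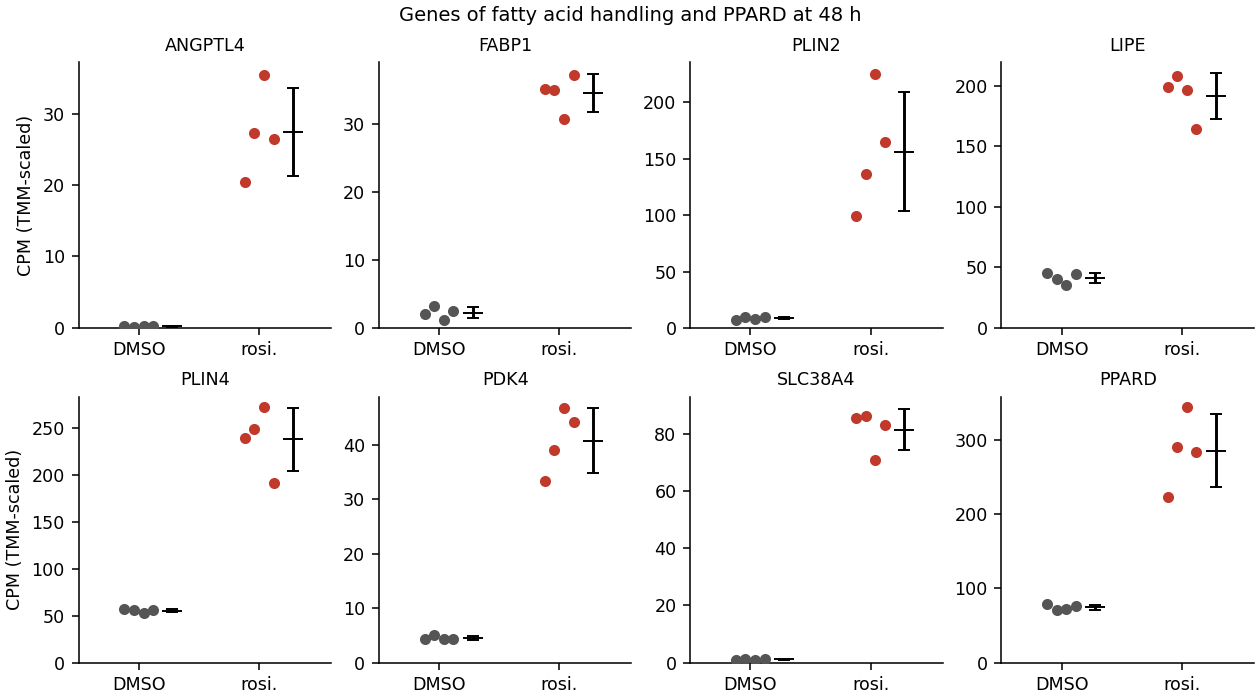
CPM of 8 genes in each of the 4 DMSO (grey) and 4 rosiglitazone (red) libraries at 48 h, with the mean ± SD in black beside the points and each y axis starting at 0. In all 8 panels every rosiglitazone library lies above every DMSO library, as for PDK4 at 33.3 to 46.7 against 4.25 to 5.002 CPM.

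Genes that break fatty acids down rose less steeply. Of 37 tested members of the fatty acid oxidation list 14 rose and 4 fell (median 0.21), or 9 and 6 with library-size scaling. PEX11A, which drives peroxisome division, rose by a log2 fold change of 1.22 ± 0.08, and its libraries went from 10.2 to 11.6 CPM with DMSO to 22.9 to 27.8 CPM. ETFA, which passes electrons from acyl-CoA dehydrogenases to the respiratory chain, rose by 0.87 ± 0.05, ACADVL, the dehydrogenase of very long chains, by 0.68 ± 0.06 and CPT1A, the gatekeeper of mitochondrial import, by 0.50 ± 0.05. CPT1A held 85.1 to 92.9 CPM with DMSO and 123 to 131 CPM with rosiglitazone, so that even this modest change separated the groups. In the other direction, CROT, the peroxisomal carnitine transferase, fell by 1.71 ± 0.28 and DECR1, an enzyme for unsaturated chains, by 0.62 ± 0.10 on the log2 scale. Of the 6 tested genes of ketone body metabolism 1 rose and 1 fell (median -0.08), or 1 and 2 with library-size scaling. The 1 that fell was BDH2, an enzyme of ketone body use, by 1.45 ± 0.23 on the log2 scale. UCP2, the mitochondrial carrier, rose by 0.52 ± 0.05.

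PDK4, the kinase that switches off pyruvate dehydrogenase and so spares glucose when fat is burned, gave 4.30, 5.002, 4.39 and 4.25 CPM with DMSO and 33.3, 38.99, 46.7 and 44.1 CPM with rosiglitazone. The groups did not overlap (log2 fold change 3.18 ± 0.11, adjusted p = 1.25e-13). The phosphatases that reverse its action moved the other way: PDP1 fell by 0.72 ± 0.13 and PDP2 by 0.49 ± 0.11 on the log2 scale. PC, which turns pyruvate into oxaloacetate, rose by 0.65 ± 0.11. The other 11 of the 15 tested genes around the pyruvate dehydrogenase complex, its subunits and PDK1, PDK2 and PDK3 among them, did not pass the test. DESeq2 called 5 members of this list higher, against 2 in edgeR.

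The receptors themselves changed unequally. PPARD gave 78.5, 71.1, 72.5 and 75.9 CPM with DMSO and 223, 290.1, 344 and 284 CPM with rosiglitazone (log2 fold change 1.94 ± 0.10, adjusted p = 1.99e-11). PPARG, the target of the drug, gave 85.2, 76.2, 81.8 and 80.5 CPM with DMSO and 50.3, 55.1, 67.5 and 61.1 CPM with rosiglitazone (-0.47 ± 0.08, adjusted p = 7.36e-05). Neither gene's groups overlapped, so PPARD transcripts rose while PPARG transcripts fell in every treated library. PPARA (0.03 ± 0.06, adjusted p = 0.69) and RXRA (0.06 ± 0.08, adjusted p = 0.583) overlapped between the groups, and the sign of each flipped with library-size scaling.

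Of 16 tested receptor and coregulator genes, 4 rose and 3 fell, or 3 and 4 with library-size scaling. The coactivator PPARGC1B rose by 1.16 ± 0.14, while the coactivators NCOA1 and NCOA2 each fell by 0.54 on the log2 scale (SE 0.08 and 0.07). PPARGC1A could not be tested, with 8, 6, 2 and 4 counts with DMSO and 2, 2, 0 and 0 with rosiglitazone.

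LXR genes and fat synthesis were also touched. NR1H3, which encodes LXR alpha, rose by 1.09 ± 0.06, from 67.3 to 83.2 CPM with DMSO to 159 to 165 CPM. LPCAT3, which remodels membrane phospholipids, rose by 1.28 ± 0.06 and the cholesterol exporter ABCG1 by 1.22 ± 0.13. In total 5 of the 9 tested LXR targets rose and 1, SMPDL3A (-0.98 ± 0.14), fell, with a median of 0.72. ABCA1, the best-known LXR target, did not pass the test: its DMSO libraries gave 3.21, 2.46, 1.85 and 2.14 CPM and its rosiglitazone libraries 3.10, 2.92, 3.61 and 3.58 CPM (0.46 ± 0.15, adjusted p = 0.0199). It passed with DESeq2 (adjusted p = 0.00388) and without DMSO replicate 1 (0.00195).

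Of 16 tested fatty acid synthesis genes 7 rose and 2 fell (median 0.26), or 5 and 4 with library-size scaling. ELOVL1, which lengthens fatty acids, rose by 1.43 ± 0.09 and the desaturase SCD by 0.40 ± 0.06. Cholesterol synthesis and uptake went the other way, with 3 of 25 tested genes higher and 6 lower and a median of -0.17. Library-size scaling made this 0 and 12, and without rosiglitazone replicate 1 there were 10 lower. The squalene synthase gene FDFT1 rose by 0.36 ± 0.07 but did not pass with library-size scaling (adjusted p = 0.0701). Of 8 tested genes of apolipoproteins and lipoprotein assembly 1 rose and 2 fell, or 1 and 4 with library-size scaling, and 2 rose without rosiglitazone replicate 4.

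In glycolysis and lactate export 9 of 23 tested genes rose and 2 fell (median 0.13), among them PFKP (0.99 ± 0.09), HK2 (0.95 ± 0.08) and ALDOA (0.67 ± 0.06), 3 enzymes of the upper pathway. PFKFB4, a regulator of the phosphofructokinase step, fell by 1.29 ± 0.25 and was the only member called at least 2-fold. Library-size scaling evened this to 5 and 5, and the count of 2 was 1 without DMSO replicate 3 or 4. In the tricarboxylic acid cycle 8 of 20 rose and 2 fell (median 0.02), with MDH2 at 0.41 ± 0.05 and IDH2 at -0.38 ± 0.07. The scaling turned that split over, to 2 higher and 5 lower, and the count of 2 was 1 without any 1 of the 8 libraries except rosiglitazone replicate 3. Nuclear genes of oxidative phosphorylation were near the background, with 13 of 74 higher and 8 lower and a median of -0.01, and members included CYC1 at 0.46 ± 0.05 and NDUFB4 at -0.46 ± 0.08. There, library-size scaling gave 2 and 21, without rosiglitazone replicate 4 the count higher was 8, and without DMSO replicate 3 the count lower was 5.

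Several genes that protect against oxidants rose, and a main epithelial source of superoxide fell. HMOX1, the stress-induced heme oxygenase, gave 4.93, 3.74, 4.58 and 4.48 CPM with DMSO and 21.9, 31.3, 44.7 and 35.995 CPM with rosiglitazone (log2 fold change 2.91 ± 0.17, adjusted p = 1.15e-10). NOX1, the NADPH oxidase of colon epithelium, gave 28.5, 29.0, 31.2 and 31.2 CPM with DMSO and 2.19, 2.66, 1.98 and 3.09 CPM with rosiglitazone (-3.61 ± 0.15, adjusted p = 1.04e-12). Its treated libraries were uniformly low, and its activator NOXA1 also fell (-0.69 ± 0.10), whereas the other 6 tested NADPH oxidase genes did not pass. Of 30 tested glutathione and antioxidant genes 11 rose and 2 fell (median 0.20), or 7 and 5 with library-size scaling. GPX3, a secreted glutathione peroxidase, rose by 1.46 ± 0.08, SRXN1, which repairs peroxiredoxins, by 1.39 ± 0.14 and GPX4, which reduces lipid peroxides, by 0.57 ± 0.05. The 2 that fell were GPX8 (-1.74 ± 0.20) and SOD3 (-1.49 ± 0.18).

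The integrated stress response list had 7 of 20 tested genes higher and 0 lower (median 0.21), or 4 and 1 with library-size scaling. In edgeR 1 member was lower at an unadjusted p under 0.05, and DESeq2 also called 0 lower. FGF21, a hormone gene known to respond to PPARs and to stress, gave 2.20, 2.40, 4.49 and 2.91 CPM with DMSO and 7.03, 11.3, 17.5 and 13.9 CPM with rosiglitazone (2.04 ± 0.26, adjusted p = 5.61e-06). CEBPB rose by 0.66 ± 0.09, SESN2 by 0.60 ± 0.11 and DDIT4, an inhibitor of mTORC1, by 0.48 ± 0.08, while ATF4, DDIT3, ASNS and TRIB3 did not pass.

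The broadest decrease was in the secretory lineage, the goblet and enteroendocrine branch of the gut epithelium. ATOH1, the transcription factor that commits cells to that branch, gave 2.08, 2.52, 2.44 and 3.08 CPM with DMSO and 0.287, 0.195, 0 and 0 CPM with rosiglitazone (log2 fold change -4.32 ± 0.38, adjusted p = 5.08e-08). REG4, a secreted lectin of these cells, gave 22.4, 20.9, 25.4 and 24.1 CPM with DMSO and 2.58, 2.47, 2.39 and 2.96 CPM with rosiglitazone (-3.16 ± 0.09, adjusted p = 4.29e-15). Neither gene's groups came near each other, and the REG4 libraries agreed closely within each group. Fewer cells of this kind and less RNA per cell cannot be told apart in bulk libraries.

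Of 32 tested genes of the secretory lineage and mucins, 20 fell, 17 of them at least 2-fold, and 2 rose, with a median of -1.05. Over all tested genes 13.1% fell, 3.87% fell at least 2-fold and 12.3% rose. The same counts of 20 and 2 were found with library-size scaling, and without DMSO replicate 2 the count higher was 1. The Notch ligand DLL1 gave 8.52, 8.24, 10.1 and 8.56 CPM with DMSO and 1.54, 1.27, 1.09 and 0.780 CPM with rosiglitazone (-2.91 ± 0.14). Goblet cell genes fell by 2.41 ± 0.14 (TFF3), 1.45 ± 0.06 (AGR2), 1.28 ± 0.08 (SPDEF) and 1.06 ± 0.13 (MUC2) on the log2 scale. MUC2, the gel-forming mucin, held 75.0 to 110.3 CPM with DMSO and 40.5 to 47.3 CPM with rosiglitazone, so that the groups did not overlap. The enteroendocrine factor NEUROG3 fell by 1.88 ± 0.14 and the membrane mucin MUC13 by 1.62 ± 0.09, whereas MUC17, another membrane mucin, rose by 1.38 ± 0.17.

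Genes of absorptive cell maturation split. Of 21 tested, 7 rose and 11 fell (median -0.76), or 4 and 11 with library-size scaling. KRT20, the keratin of the upper crypt, gave 333, 302, 348 and 349.8 CPM with DMSO and 807, 1011, 1505 and 1163 CPM with rosiglitazone (log2 fold change 1.75 ± 0.12, adjusted p = 1.71e-09). SI, the brush border disaccharidase, gave 2.14, 3.77, 2.98 and 3.77 CPM with DMSO and 0.313, 0.422, 0.435 and 0.423 CPM with rosiglitazone (-2.99 ± 0.24, adjusted p = 9.59e-09). Surface and brush border genes thus lay on both sides: CEACAM5 (1.68 ± 0.19), CEACAM6 (1.31 ± 0.12) and CDHR5 (1.19 ± 0.13) rose, and the villus genes VIL1 (-1.004 ± 0.11) and DPP4 (-0.83 ± 0.07) and the immune ligand gene HHLA2 (-1.26 ± 0.13) fell. The 2 CEACAM genes share much of their sequence, so reads could have been split between them.

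Intestinal transcription factors and KLF genes were 6 higher and 8 lower of 27 tested (median -0.11), or 3 and 14 with library-size scaling. KLF4, a factor of differentiated epithelium, rose by 1.07 ± 0.11 and the epithelial factor ELF3 by 0.44 ± 0.06. KLF15 fell by 1.47 ± 0.16, FOXA3 by 0.83 ± 0.09 and CDX2, a master factor of intestinal identity, by 0.67 ± 0.09 on the log2 scale. CDX2 held 9.65 to 12.1 CPM with DMSO and 6.43 to 7.23 CPM with rosiglitazone.

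**Figure D3:**
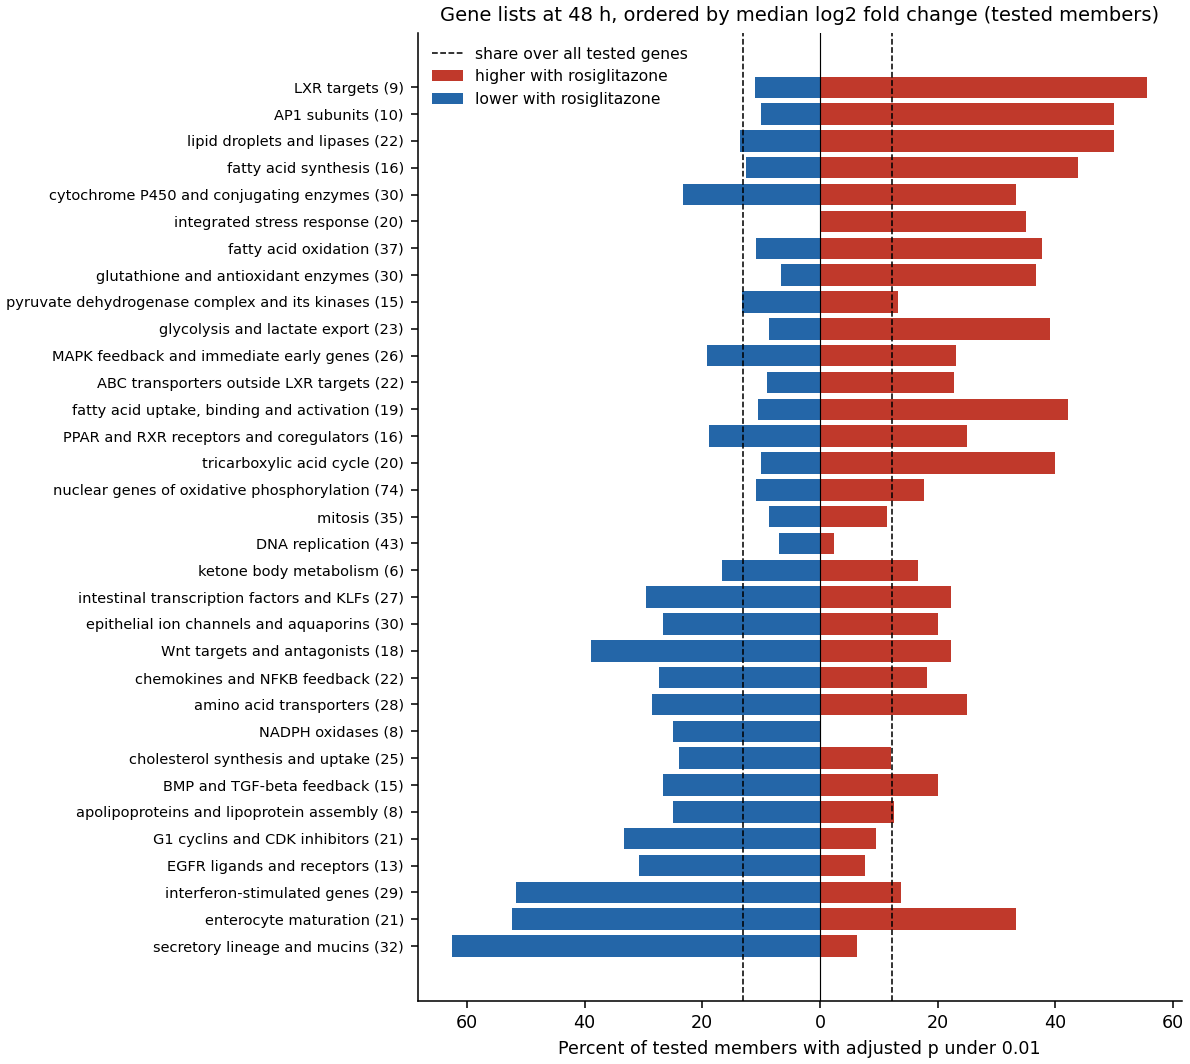
For each of 33 gene lists, the bars give the percent of tested members (number in brackets) that were higher (red, to the right) or lower (blue, to the left) with rosiglitazone at an adjusted p under 0.01; the dashed lines are the shares over all tested genes, 12.3% and 13.1%. The lists are ordered by their median log2 fold change, from 0.72 for LXR targets at the top to -1.05 for the secretory lineage and mucins at the bottom.

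In the list of targets and antagonists of WNT signalling, which keeps crypt cells dividing, genes moved in both directions and more fell than rose. Of 18 tested targets and antagonists 4 rose and 7 fell (median -0.13), or 3 and 9 with library-size scaling. Over all tested genes the shares were 12.3% and 13.1%. NOTUM, a secreted WNT inhibitor, gave 7.51, 5.84, 7.10 and 8.33 CPM with DMSO and 1.17, 1.23, 0.679 and 0.520 CPM with rosiglitazone (log2 fold change -2.99 ± 0.21). The feedback gene AXIN2 fell by 0.94 ± 0.07, the receptor gene EPHB3 by 2.11 ± 0.12 and PROX1 by 1.53 ± 0.12 on the log2 scale. EPHB2, a close relative of EPHB3, moved in the opposite direction (1.26 ± 0.18), from 2.61 to 3.51 CPM with DMSO to 5.25 to 8.39 CPM. MYC rose by 0.66 ± 0.09. LGR5 and ASCL2, markers of intestinal stem cells, did not pass the test.

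Machinery of the cell cycle stayed close to the median gene. In the DNA replication list 1 of 43 tested genes rose, CDC6 (0.70 ± 0.08), and 3 fell, with a median of -0.06. In the mitosis list 4 of 35 rose, with MYBL2 at 0.66 ± 0.07, and 3 fell, with TOP2A at -0.32 ± 0.06 (median -0.03). Shares that low lie under the 12.3% and 13.1% of all tested genes. With library-size scaling the counts were 1 and 9 for replication and 1 and 11 for mitosis, and without rosiglitazone replicate 1 the counts that fell were 10 and 5. Of 21 tested G1 cyclins and CDK inhibitors 2 rose and 7 fell (median -0.29), or 1 and 11. The cyclin gene CCND1 gave 113, 106, 112 and 108 CPM with DMSO and 67.5, 76.3, 87.8 and 71.5 CPM with rosiglitazone (-0.53 ± 0.07). MYB fell by 1.44 ± 0.22 and the CDK inhibitor gene CDKN1C by 1.20 ± 0.17.

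Chloride-secreting epithelium depends on a channel, a cotransporter and the sodium pump, and a gene of each fell. CFTR, the apical chloride channel, gave 94.3, 113, 102 and 98.6 CPM with DMSO and 24.5, 24.2, 13.8 and 21.7 CPM with rosiglitazone (log2 fold change -2.28 ± 0.12, adjusted p = 5.32e-11). SLC12A2, the basolateral cotransporter, gave 532, 604, 548 and 555 CPM against 228, 211, 149.96 and 183 CPM (-1.54 ± 0.10, adjusted p = 3.25e-10). ATP1B1, the beta subunit of the pump, fell by 1.39 ± 0.06 and the anion exchanger SLC26A6 by 1.05 ± 0.08. Replicate 3 was the lowest treated library for CFTR and SLC12A2. AQP7 (2.68 ± 0.16) and AQP3 (1.31 ± 0.07), aquaporins that also pass glycerol, were among the members that rose. Over the whole list of ion channels and aquaporins 6 of 30 tested genes rose and 8 fell (median -0.12), or 3 and 12 with library-size scaling.

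Amino acid transporters held the second-largest increase. SLC38A4, a sodium-coupled carrier of neutral amino acids, gave 1.04, 1.35, 0.887 and 1.23 CPM with DMSO and 85.6, 86.2, 71.0 and 83.0 CPM with rosiglitazone (log2 fold change 6.18 ± 0.12, adjusted p = 7.61e-18). The spread within each group was small beside the change, and this gene had the lowest adjusted p of all those tested. Its relative SLC38A11 fell by 2.77 ± 0.18 and the proline carrier SLC6A20 by 1.98 ± 0.10 on the log2 scale, and the glutamine carrier SLC1A5 and its partner in exchange SLC7A5 rose by 0.56 ± 0.08 and 0.53 ± 0.10. Altogether 7 of 28 tested rose and 8 fell (median -0.17), or 3 and 12 with library-size scaling, and the count higher was 4 without rosiglitazone replicate 2 or DMSO replicate 2, 3 or 4. Of 22 tested ABC transporters outside the LXR targets 5 rose and 2 fell (median 0.07), or 2 and 7 with library-size scaling, with ABCC1 at 0.75 ± 0.08 and ABCA5 at -1.65 ± 0.15.

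Signalling genes changed in both directions. DUSP1, a phosphatase that switches off MAP kinases, gave 31.3, 24.9, 29.8 and 30.3 CPM with DMSO and 63.9, 90.3, 111 and 93.6 CPM with rosiglitazone (1.62 ± 0.13, adjusted p = 1.32e-08). Other feedback inhibitors of the pathway lay on both sides. SPRY4 fell by 1.07 ± 0.10, SPRY2 by 1.02 ± 0.07 and DUSP4 by 1.02 ± 0.07 on the log2 scale. DUSP8 rose by 0.56 ± 0.10 and SPRED1 by 0.43 ± 0.06, and PHLDA1 rose by 1.08 ± 0.09. The MAPK feedback and immediate early list had 6 higher and 5 lower of 26 tested (median 0.11), or 5 and 7 with library-size scaling. Of the 10 tested AP1 subunits 5 rose and 1 fell under either scaling (median 0.52). FOSL1 rose by 1.14 ± 0.08, JUN and FOS by 0.91 each (SE 0.07 and 0.13), FOSL2 by 0.76 ± 0.08, and BATF2 fell by 1.58 ± 0.26.

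Among 13 tested EGFR ligands and receptors TGFA alone rose (0.81 ± 0.08) and 4 fell, with LRIG1 at -0.97 ± 0.10, ERBB2 at -0.59 ± 0.10 and ERBB3 at -0.56 ± 0.06 (list median -0.34), and 7 fell with library-size scaling. In the BMP and TGF-beta list 3 of 15 rose and 4 fell (median -0.22), or 2 and 8 with library-size scaling. ID2 fell by 1.79 ± 0.08, the matrix gene TGFBI by 1.59 ± 0.06 and the ligand gene TGFB2 by 1.28 ± 0.12, while ID1 rose by 0.65 ± 0.08. ID1 and ID2, both inhibitors of helix-loop-helix factors, therefore moved apart.

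Among inflammatory genes, the interferon-stimulated ones fell more often than they rose, whereas chemokine and NFKB feedback genes changed in both directions. Of all tested genes 12.3% rose and 13.1% fell. PTGS2, which encodes the cyclooxygenase COX-2, gave 63.7, 62.9, 63.7 and 63.3 CPM with DMSO and 14.98, 16.8, 9.08 and 13.04 CPM with rosiglitazone (log2 fold change -2.24 ± 0.14, adjusted p = 2.94e-10). Of 22 tested chemokine and NFKB feedback genes 4 rose and 6 fell (median -0.16), or 3 and 8 with library-size scaling, with CXCL1 at -1.40 ± 0.25, NFKBIZ at -1.01 ± 0.10, ICAM1 at -0.89 ± 0.17 and the inhibitor NFKBIA at 0.49 ± 0.08. Interferon-stimulated genes had 15 of 29 lower and 4 higher (median -0.60), or 19 and 3 with library-size scaling. The interferon signal carriers IRF9 (-0.95 ± 0.14) and STAT2 (-0.82 ± 0.13) fell, and IRF7 (0.59 ± 0.09) and OASL (0.94 ± 0.19) rose. Cytochrome P450 and conjugating enzymes were split, with 10 of 30 higher and 7 lower (median 0.23), or 8 and 8 with library-size scaling, and members included CYP2B6 at 1.26 ± 0.10 and CYP2W1 at -1.31 ± 0.14.

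The remaining genes with the steepest changes belong to no list. Among the increases, SEMA7A, a membrane-anchored semaphorin, gave 7.75, 5.18, 8.04 and 9.19 CPM with DMSO and 75.4, 140.1, 181 and 140.1 CPM with rosiglitazone (4.15 ± 0.21). FLNC, an actin-binding filamin, gave 1.16, 0.898, 1.55 and 0.913 CPM with DMSO and 14.2, 40.4, 109.8 and 41.1 CPM with rosiglitazone (5.49 ± 0.48). The FLNC values of the treated libraries were widely spread, with replicate 3 the highest and replicate 1 the lowest, but all lay above DMSO. DHRS9, a retinol dehydrogenase, rose by 3.17 ± 0.31 and the unnamed transcript AC013472.3 by 3.32 ± 0.39.

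Of the steepest decreases, CD200, a membrane glycoprotein that restrains immune cells, gave 7.45, 9.31, 8.21 and 8.22 CPM with DMSO and 0.807, 0.876, 0.109 and 0.585 CPM with rosiglitazone (-3.81 ± 0.24). RAMP1, a partner of the receptor for the peptide CGRP, fell by 3.79 ± 0.22, the non-coding RNA NCRNA00261 by 3.55 ± 0.10 and SPTLC3, a subunit of the enzyme that starts sphingolipid synthesis, by 3.34 ± 0.24. ATOH8 fell by 3.27 ± 0.26, the protease gene ADAMTS6 by 3.16 ± 0.18 and BTN3A3 by 3.16 ± 0.40. BTN3A3 has near-identical paralogs, and the library kit does not mark strand, so reads of overlapping or antisense genes cannot be told apart for the non-coding transcripts.

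The response at 48 h was next compared with that at 24 h, measured in separate libraries. Each response is relative to the DMSO libraries of its own time, and the DMSO level of some genes differed between the times. NOX1 gave 6.78 to 10.4 CPM with DMSO at 24 h and 28.5 to 31.2 CPM at 48 h. With rosiglitazone it gave 1.18 to 2.06 and 1.98 to 3.09 CPM. At 24 h 170 of 21781 tested genes (0.78%) were at least 2-fold higher and 305 (1.4%) at least 2-fold lower. Of the 447 genes higher at 48 h, 425 were tested at 24 h and 135 were called there in the same direction, which is 31.8% of the 425 and 79.4% of the 170. Of the 870 lower genes, 801 were tested and 232 called, 29.0% of the 801 and 76.1% of the 305. Over the tested genes the median log2 fold change was 0.78 at 24 h and 1.35 at 48 h for those higher, and -0.79 and -1.46 for those lower, where the genes had been chosen at 48 h.

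A test of the difference itself, in 1 fit of all 32 libraries, found 320 of 23140 genes (1.38%) with a more positive and 246 (1.06%) with a more negative response at 48 h. These counts rested on single libraries: leaving out rosiglitazone 48 h replicate 1 raised them to 657 and 563, whereas leaving out replicate 3 lowered them to 191 and 158. The first was also 180 without DMSO 24 h replicate 2, 179 without DMSO 24 h replicate 4, 209 without DMSO 48 h replicate 2 and 203 without DMSO 48 h replicate 3, and the second was 163 without rosiglitazone 24 h replicate 2 and 162 without DMSO 48 h replicate 2. With library-size scaling they were 183 and 442.

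Secretory lineage genes were prominent among those with a more negative response at 48 h, with 7 of the 32 tested more negative and 1 more positive. REG4 was the steepest: its log2 fold change was -0.40 ± 0.06 at 24 h and -3.16 at 48 h, a difference of -2.75 ± 0.11 (adjusted p = 1.51e-18). ATOH1 went from -1.80 ± 0.13 to -4.32, a difference of -2.50 ± 0.41 (adjusted p = 0.000224). In the ion channel list 7 of 30 were more negative at 48 h, CFTR by -0.67 ± 0.16 and ATP1B1 by -0.60 ± 0.07. CLDN2, a tight junction claudin, was at 0.20 ± 0.10 at 24 h and fell by 1.597 ± 0.25 at 48 h, and FGF19, a hormone gene of the gut, went from -1.20 ± 0.12 to -2.92 ± 0.24. For FGF19 the DMSO level was 20.7 to 23.5 CPM at 24 h and 57.6 to 74.2 CPM at 48 h. With rosiglitazone FGF19 gave 8.34 to 11.1 and 3.45 to 14.1 CPM.

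**Figure D4:**
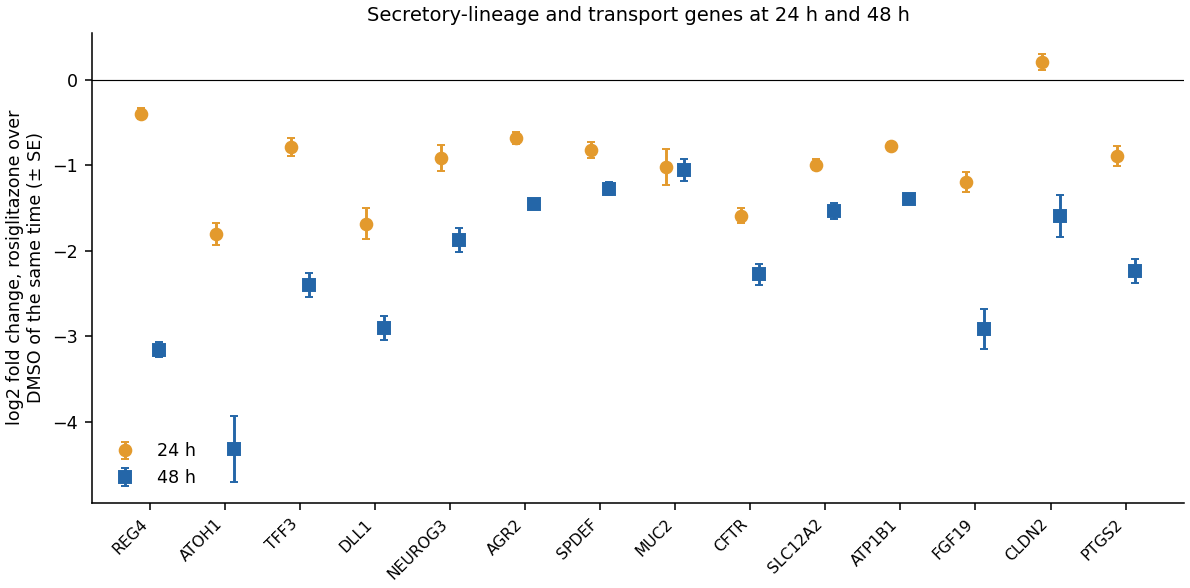
Log2 fold change of rosiglitazone over the DMSO libraries of the same time, ± SE, at 24 h (circles) and 48 h (squares) for 14 genes of the secretory lineage, of ion transport and others named in the text. REG4 moves from -0.40 to -3.16 and ATOH1 from -1.80 to -4.32, whereas MUC2 stays near -1 at each time.

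Among genes called at 48 h, the largest more positive responses were those of AC013472.3 (a difference of 2.43 ± 0.54), DUSP1, POU2F2 and RP11-347I19.3. DUSP1 was at -0.27 ± 0.14 at 24 h and 1.62 ± 0.13 at 48 h, a difference of 1.91 ± 0.20 (adjusted p = 2.48e-07). It gave 4.55 to 5.24 CPM with DMSO at 24 h and 24.9 to 31.3 CPM at 48 h. With rosiglitazone it gave 3.66 to 4.28 and 63.9 to 111 CPM. POU2F2, a transcription factor best known from B cells, and the non-coding RP11-347I19.3 differed by 1.63 ± 0.34 and 1.63 ± 0.22. Of the genes above, PLIN2 (1.41 ± 0.22) and PPARD (1.02 ± 0.13) also responded more at 48 h, and 7 of the 30 tested antioxidant genes did. SLC38A4, at 5.92 ± 0.09, and FABP1, at 4.30 ± 0.28, had already risen at 24 h, and their differences did not pass the test (0.28 ± 0.16 and -0.33 ± 0.36).

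Rosiglitazone was finally compared directly with GW3965, an LXR agonist given at the same dose and for the same time, to see which changes differed between the receptors' agonists. In the same fit 1212 genes (5.39%) were at least 2-fold higher and 1887 (8.4%) at least 2-fold lower with rosiglitazone than with GW3965. The fold changes over DMSO that follow share the same DMSO libraries, so the drugs were compared through a direct test of their difference. ANGPTL4 rose by 6.75 with rosiglitazone and 3.81 ± 0.35 with GW3965, a difference of 2.94 ± 0.21 (adjusted p = 6.23e-10). PLIN2 differed by 2.82 ± 0.17, PDK4 by 0.90 ± 0.10, SLC38A4 by 3.15 ± 0.09 and FABP1 by 1.42 ± 0.15, each higher with rosiglitazone. With GW3965 these genes were also above DMSO, PLIN2 by 1.37 ± 0.17, PDK4 by 2.29 ± 0.11, SLC38A4 by 3.03 ± 0.12 and FABP1 by 2.54 ± 0.18.

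Several genes stood on opposite sides of DMSO with the 2 drugs. PPARD rose by 1.94 with rosiglitazone and was at -0.55 ± 0.10 with GW3965, a difference of 2.49 ± 0.10. SEMA7A was at 4.15 and -2.04 ± 0.25, DUSP1 at 1.62 and -2.24 ± 0.14 and FOSL1 at 1.14 and -2.40 ± 0.09, with differences of 6.19 ± 0.24, 3.86 ± 0.15 and 3.53 ± 0.09. The LXR targets were lower with rosiglitazone than with GW3965: ABCA1 by 5.31 ± 0.12 on the log2 scale, ABCG1 by 2.16 ± 0.13, SCD by 2.17 ± 0.06 and LPCAT3 by 0.90 ± 0.06. ACSL1 was also lower with rosiglitazone, by 1.57 ± 0.06. The secretory genes REG4 and DLL1, by contrast, were at -0.01 and -0.33 with GW3965 and were lower with rosiglitazone by 3.15 ± 0.09 and 2.58 ± 0.14.

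**Figure D5:**
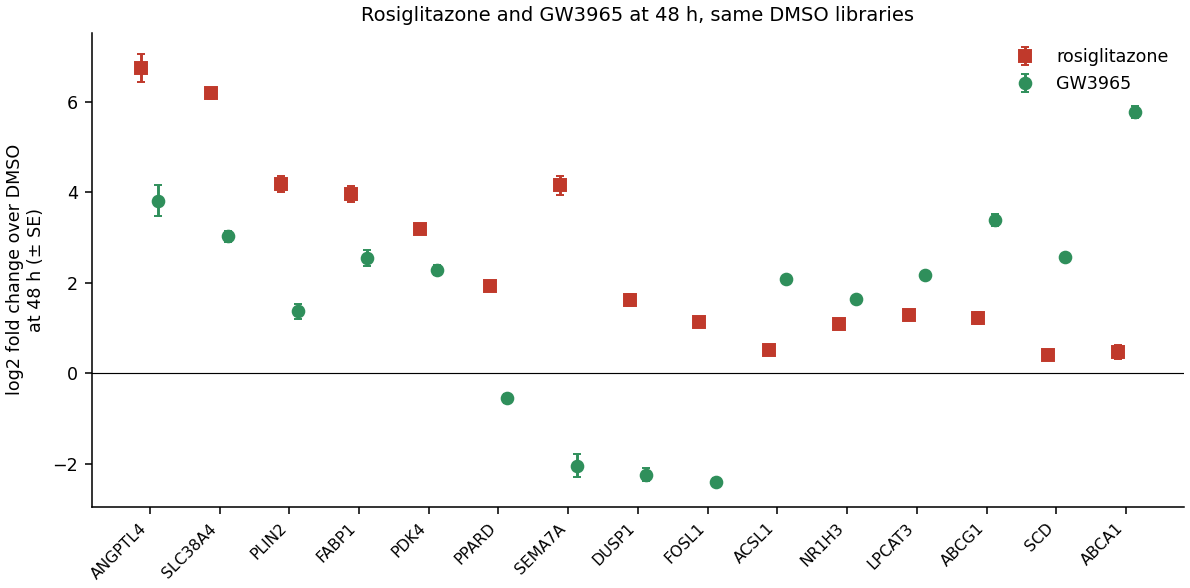
Log2 fold change over the same 4 DMSO libraries at 48 h, ± SE, for rosiglitazone (red squares) and GW3965 (green circles) in 15 genes. Rosiglitazone lies higher for ANGPTL4 (6.75 against 3.81) and PPARD (1.94 against -0.55) and lower for ABCA1 (0.46 against 5.77).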

How the data were processed

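RNA-seq libraries of HT29 cells were made from poly(A) RNA, with the cDNA fragmented by Nextera transposase, a kit that does not mark strand. The authors deposited 1 table of raw gene counts per time point. Per the submitters' processing notes, TopHat, Cufflinks and hg19 were used, whereas for the counting program and its settings the sources used here give nothing. Groups came from the sample labels. The 16 libraries of the 48 h table (4 groups of 4) entered 1 model (edgeR 4.0.16, R 4.3.3) after filterByExpr and TMM scaling, and p-values of the quasi-likelihood test were adjusted by Benjamini-Hochberg over every gene tested. Genes counted as called changed at least 2-fold at an adjusted p under 0.01, and list members were counted at an adjusted p under 0.01. The 24 h and 48 h responses were compared as an interaction in 1 fit of all 32 RNA libraries. SE values are the absolute log2 fold change divided by the square root of F. The scripts were tested on simulated data. Alternatives included DESeq2 1.42.0, other scalings and filters, a replicate block and leaving out each library.

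Named genes were the receptors and textbook PPAR targets, the 10 largest changes in each direction averaging at least 1 log2 CPM without overlap between groups, up to 4 members per list and direction by adjusted p (all members of lists of up to 15), and the 4 largest differences between times in each direction. TFF3, SPDEF, NEUROG3, MUC2, PLIN1, CIDEC and CFD were added after their values were seen. Members and lists were chosen with earlier results of these data known. The ChIP-seq samples were not used here, and some genes are not reported here.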

Additional observations from a re-analysis of the deposited data

Results flagged for a closer look

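Looked at were 153 of the genes named in the text, each with 4 libraries per group at 48 h. In 9 of 306 groups 1 library was set apart from the other 3 by Dixon's criterion. Chance sets apart about 1 group in 20. PDP1 gave 10.01 CPM in DMSO 48 h replicate 3, against 8.625 to 8.673 CPM in the other libraries of the group. PC gave 87.13 CPM in DMSO 48 h replicate 3, against 104.6 to 106.9 CPM in the other libraries of the group. PPARGC1B gave 11.93 CPM in rosiglitazone 48 h replicate 4, against 16.59 to 16.71 CPM in the other libraries of the group. NOXA1 gave 9.584 CPM in DMSO 48 h replicate 2, against 8.531 to 8.666 CPM in the other libraries of the group. SOD3 gave 2.292 CPM in DMSO 48 h replicate 3, against 2.935 to 3.027 CPM in the other libraries of the group. DLL1 gave 10.13 CPM in DMSO 48 h replicate 3, against 8.236 to 8.559 CPM in the other libraries of the group. SI gave 0.3126 CPM in rosiglitazone 48 h replicate 1, against 0.4217 to 0.4348 CPM in the other libraries of the group. HHLA2 gave 12.47 CPM in DMSO 48 h replicate 3, against 15.7 to 16.14 CPM in the other libraries of the group. OASL gave 7.308 CPM in DMSO 48 h replicate 2, against 10.07 to 10.35 CPM in the other libraries of the group. DMSO replicate 3 accounts for 5 of the 9.

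The response to rosiglitazone differed between 48 h and 24 h in edgeR's test of the difference (adjusted p under 0.01) for 320 genes in the positive and 246 in the negative direction, and 46 of the named genes were among them. The values that follow are log2 fold changes at 48 h minus those at 24 h. More positive at 48 h were PLIN2 (1.41), AGPAT2 (0.40), ETFA (0.32), PPARD (1.02), ABCG1 (0.73), ABCA1 (1.43), ELOVL1 (0.62), PFKP (0.58) and ALDOA (0.43). The same held for MDH2 (0.34), GPX4 (0.31), SRXN1 (0.99), GPX3 (0.58), DDIT4 (1.11), SESN2 (0.97), DUSP1 (1.91), PHLDA1 (0.46) and FOSL1 (0.66). Also more positive were JUN (0.62), AC013472.3 (2.43), POU2F2 (1.63) and RP11-347I19.3 (1.63). Of these genes, ABCA1 (-0.95 ± 0.11), DDIT4 (-0.61 ± 0.12), SESN2 (-0.36 ± 0.11) and DUSP1 (-0.27 ± 0.14) had a negative log2 fold change at 24 h. The DMSO level also differed between the times. DDIT4 gave 23.3 to 29.7 CPM with DMSO at 24 h and 491 to 533 CPM at 48 h. SESN2 gave 20.1 to 22.4 and 271 to 286 CPM. More negative at 48 h were NOX1 (-1.25), ATOH1 (-2.50), REG4 (-2.75), DLL1 (-1.21), TFF3 (-1.60), NEUROG3 (-0.95), AGR2 (-0.75), DPP4 (-0.66) and AXIN2 (-0.48). So were CDX2 (-0.98), CFTR (-0.67), SLC12A2 (-0.52), ATP1B1 (-0.60), SLC26A6 (-0.69), AQP3 (-0.51), SPRY4 (-0.65), TGFBI (-0.54) and TGFB2 (-0.89). Also more negative were PTGS2 (-1.33), RAMP1 (-1.50), NCRNA00261 (-1.37), ADAMTS6 (-1.38), FGF19 (-1.70) and CLDN2 (-1.78).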

How the results depend on the processing

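Of the 153 named genes looked at, 148 kept their direction and their side of the threshold under all 15 alternatives. With scaling by library size PPARA was at -0.15 and RXRA at -0.12, neither past the threshold under either scaling, and FDFT1 at 0.18 lost its call. ABCA1 gained a call with DESeq2 (0.48) and without DMSO replicate 1 (0.64). CD36 ranged from -0.9 to 0.69 when single libraries were left out and was at 0.2 without rosiglitazone replicate 3, rosiglitazone replicate 4 or DMSO replicate 4. The cause of these shifts was not tested, except that the scaling itself moves the median gene.

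A cutoff of 1.5-fold in place of 2-fold gave 1076 higher and 1662 lower genes, and a test against a fold change of 1.5 gave 356 and 550. Between 460 and 878 (DESeq2) and 369 and 685 (at least 1 CPM in 4 libraries), the other filters and tools stayed within 1.5 times of 447 and 870. Leaving out 1 library gave 398 to 499 higher and 738 to 1010 lower genes, and 1036 to 1382 and 1674 to 2095 against GW3965. The comparison of times was less stable, with 179 to 657 more positive and 158 to 563 more negative genes when 1 library was left out. It gave 183 and 442 with library-size scaling, 516 and 501 with DESeq2, and 225 and 142 from the 16 DMSO and rosiglitazone libraries alone.

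Of the list counts, DESeq2 raised the members of the pyruvate dehydrogenase list called higher from 2 to 5. With the 8 libraries alone, 1 member of the fatty acid uptake list (against 2), 1 of the lipid droplet list (against 3) and 1 of the tricarboxylic acid cycle list (against 2) fell, the last also with RLE scaling or no filter on low counts. With at least 1 CPM in 4 libraries, 4 cytochrome P450 and conjugating genes fell (against 7).

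The labels number the replicates 1 to 4 in each group. Same-numbered DMSO and rosiglitazone libraries deviated together little across genes (r from -0.025 to 0.072, against -0.068 to 0.052 for different numbers). Replicate 3 had the lowest share of mitochondrial counts in each 48 h group: 1.85% with DMSO, 2.37% with rosiglitazone, 2.8% with GW3965 and 2.57% with T0901317. What same-numbered libraries have in common was not tested. With the replicate number as a replicate block the counts were 441 and 856, and the members that fell were 4 (against 2) in fatty acid synthesis and 5 (against 3) in DNA replication.

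Depth limits what can be said of genes near 0 counts, such as CD36 and FABP4, and levels of different genes cannot be ranked because no transcript lengths were used.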
